A study of Mus musculus with 2 samples.

Results

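The genes described here encode 9 secreted proteins from families of WNT antagonists, and are called antagonists below. The name holds less well for Dkk2 and Dkk3, as described with their values. The 9 are the secreted frizzled-related proteins Sfrp1, Sfrp2, Sfrp4, Sfrp5 and Frzb (also called Sfrp3), the Dickkopf proteins Dkk1, Dkk2 and Dkk3, and Wif1. They were taken by gene symbol from the 19938 genes with a probe set of their own on the array, and each of the 9 had 1 probe set. The family was selected on the log2 differences between these same 2 arrays, which were already known when it was put together, so its values are a description and carry no test.

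RNA was measured in the tibialis anterior, a muscle of the lower hindlimb, of mice of mixed 129Sv/C57BL6 background aged 2 to 4 months. All mice had received 50 µl of 10 µM cardiotoxin, a peptide of snake venom that kills fibres and sets off regeneration, in the right muscle 7 days earlier. The groups were wild type (Mef2a +/+) and Mef2a knockout (Mef2a -/-) mice of both sexes, with the injury shared by both groups and no uninjured muscle among the samples. RNA of 5 mice per genotype was pooled and hybridised to 1 array, so there are 2 arrays, no replicates and no measure of the spread between mice or between arrays.

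WNT proteins signal by binding a Frizzled receptor together with the co-receptor LRP5 or LRP6, which stabilises beta-catenin and switches on target genes through TCF/LEF factors. Secreted antagonists act before this step. Frizzled-related proteins and WIF1 bind the WNT protein itself, the former through a cysteine-rich domain like that of the Frizzled receptors, while DKK1 and DKK2 occupy LRP5 and LRP6. In regenerating muscle WNT signals act on satellite cells and their progeny and on the connective tissue cells around them. MEF2A, the factor removed by the knockout, binds an AT-rich DNA site in muscle gene promoters.

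Because MEF2A acts through DNA, the bases just before the start site are shown for those genes past 1.5-fold whose sequence was found. RefSeq promoter windows (GRCm38.p6) were found for 6 of the 9 genes and not for Sfrp1, Sfrp4 and Dkk3. The 250 bases before the start lie at chr3:83766071-83766320 on the plus strand for Sfrp2, at chr2:80447397-80447646 on the minus strand for Frzb and at chr3:132085042-132085291 on the plus strand for Dkk2. Capitals mark matches on either strand to the motifs named after the sequences.
Sfrp2: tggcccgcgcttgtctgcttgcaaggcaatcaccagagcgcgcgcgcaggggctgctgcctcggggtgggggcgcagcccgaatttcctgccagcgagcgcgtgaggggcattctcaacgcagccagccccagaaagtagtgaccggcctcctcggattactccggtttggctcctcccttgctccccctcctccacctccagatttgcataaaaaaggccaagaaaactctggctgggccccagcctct
Frzb: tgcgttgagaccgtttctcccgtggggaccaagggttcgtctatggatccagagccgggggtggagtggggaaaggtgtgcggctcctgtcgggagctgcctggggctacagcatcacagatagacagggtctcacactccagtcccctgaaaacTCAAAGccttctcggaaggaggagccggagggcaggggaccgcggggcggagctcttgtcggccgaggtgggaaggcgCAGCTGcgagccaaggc
Dkk2: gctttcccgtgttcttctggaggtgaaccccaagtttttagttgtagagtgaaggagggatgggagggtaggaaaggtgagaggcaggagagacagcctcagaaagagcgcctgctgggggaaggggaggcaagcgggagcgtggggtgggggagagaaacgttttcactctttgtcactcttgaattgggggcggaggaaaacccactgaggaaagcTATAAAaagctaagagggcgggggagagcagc

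The consensus MEF2 site was found in none of the 6 windows and in 2.92% of 32851 windows of the same length. The TCF/LEF core CTTTGA was found before Frzb (90 to 95 bases before the start) and Dkk1, against 13.8% of all windows. The muscle regulatory E-box CANNTG was found before Frzb (12 to 17 bases before the start), Sfrp5 and Wif1, and in 66.2% of all windows. The AP-1 site TGANTCA, found in 6.75% of all windows, had no match in the 6. The TATA box TATAAA was found before Dkk2 (27 to 32 bases before the start) and Dkk1 (49 to 54). Before Wif1 its letters lay on the opposite strand, 227 to 232 bases before the start. On either strand they were found in 12.4% of all windows. The capitals in the Frzb sequence are thus a TCF/LEF core and an E-box, which share no base, and those in the Dkk2 sequence a TATA box, while the Sfrp2 sequence held no match. A match is a run of letters and not a measured binding site, and windows without one say nothing about sites elsewhere.

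Values are log2 RMA values. A floor was set at 4.39, the median of all values, and 7 of the 9 genes reached it on at least 1 array. Across the genes at the floor the share at least 1.5-fold higher in the labelled knockout pool was 6.45%, and the share at least 1.5-fold lower was 1.90%. Of the antagonists, 3 were at least 1.5-fold higher (Sfrp2, Sfrp1 and Dkk2), 1 was 1.5-fold or more lower (Frzb) and 3 at the floor lay within 1.5-fold (Sfrp4, Dkk3 and Wif1). Nothing is read from these shares, since the family was chosen on this comparison. The median difference was 0.32 over the 7 genes at the floor and 0.21 over all 9, beside 0.03 over the 11787 genes at the floor. The members differed in direction and size, with differences from -1.20 to 2.30.

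**Figure D1:**
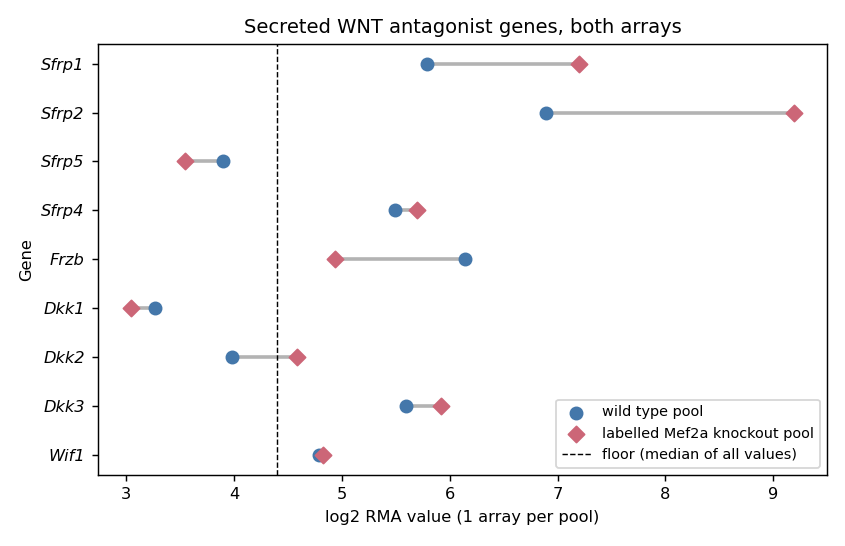
Log2 RMA value (x axis) of each of the 9 antagonist genes (y axis) in the wild type pool (circles) and the labelled Mef2a knockout pool (diamonds), 1 array each, with no error available. The dashed line is the floor of 4.39. Sfrp1 and Sfrp2 stand to the right in the labelled knockout pool, Frzb stands to the left, and Sfrp5 and Dkk1 lie below the floor in both pools.

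The first subgroup, Sfrp1, Sfrp2 and Sfrp5, held the largest differences. Sfrp2 read 6.90 on the wild type array and 9.20 on the labelled knockout array. This was 4.92-fold higher (2.30 on the log2 scale), the 8th highest of 11787 genes. Sfrp2 binds WNT proteins and has been found to hold back the differentiation of muscle precursors in culture. The study is known to have followed up Sfrp2, so its direction is not independent evidence.

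Sfrp1 encodes a WNT-binding protein of the same sequence subgroup as SFRP2 and SFRP5. It read 5.78 on the wild type array and 7.20 on the labelled knockout array, which was 2.67-fold higher (1.42 on the log2 scale) and the 59th highest difference. Both pools lay well above the floor for Sfrp1 and for Sfrp2. The difference of Sfrp2 exceeded that of Sfrp1 by 0.88 on the log2 scale, and without replicates this gap has no error.

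Sfrp5, known as an adipocyte-secreted WNT antagonist, read 3.90 on the wild type array and 3.55 on the labelled knockout array, a difference of -0.35, with both values below the floor. For scale, the 95th percentile of 1015 olfactory receptor genes, which muscle hardly uses, was 3.63 on the wild type array and 3.40 on the labelled knockout array. Sfrp5 thus lay just above that percentile on both arrays, and its difference is poorly bounded. The median difference of the 3 genes, Sfrp5 below the floor included, was 1.42, which is the value of Sfrp1.

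The second subgroup, Sfrp4 and Frzb, diverged within itself. Frzb, first known from cartilage, read 6.14 on the wild type array and 4.94 on the labelled knockout array. It was 2.30-fold lower (-1.20 on the log2 scale), the 7th lowest of 11787 genes, and its lower value lay 0.54 above the floor. It was the member lowest in the labelled knockout pool relative to wild type, opposite to Sfrp1 and Sfrp2. That lower value was also above the 95th percentile of the olfactory receptor genes on the same array (3.40). Compression by RMA at low values could make the fold of Frzb too small. Selection on these differences and noise on single arrays could make it too large. Neither was measured here.

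Sfrp4, the other member of that subgroup, read 5.49 on the wild type array and 5.70 on the labelled knockout array, a difference of 0.21 (1.16-fold). The median difference of Sfrp4 and Frzb was -0.50 and stands for neither gene, since the values lay 1.41 apart on the log2 scale. Relative to Frzb, Sfrp2 was 11.3-fold and Sfrp1 6.14-fold higher with the knockout label than with wild type. These ratios within the arrays show unequal change and not how much each gene changed.

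**Figure D2:**
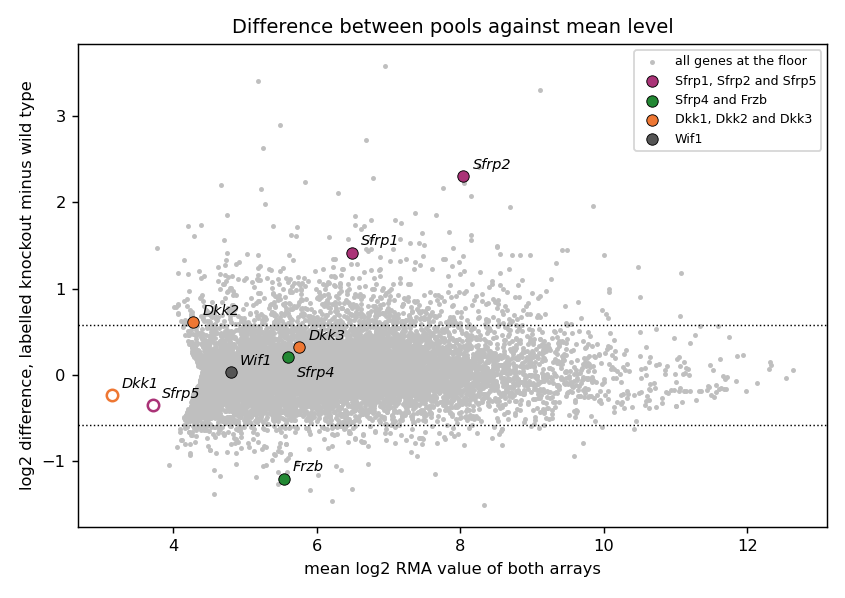
Log2 difference, labelled knockout minus wild type (y axis), against the mean log2 RMA value of both arrays (x axis). Grey points are the 11787 genes at the floor, coloured points the antagonist genes by subgroup, and open points the 2 members below the floor. Dotted lines mark 1.5-fold. Sfrp2 and Sfrp1 lie above the upper line and Frzb below the lower line, outside the central 95% of genes (-0.54 to 0.87). Dkk2, at 0.61, lies just above the upper line but inside that central range. Sfrp4, Dkk3 and Wif1 lie inside the grey band.

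The Dickkopf genes differed less. Dkk2, which encodes a ligand of LRP5 and LRP6 that can block or, in some settings, stimulate WNT signalling, read 3.97 on the wild type array, below the floor, and 4.58 on the labelled knockout array, 0.19 above it. Its difference of 0.61 (1.53-fold) only just passed the 1.5-fold limit and fell short of it, at 0.58, when differences were centred on their median. Of the 3 higher genes Dkk2 lay closest to the 1.5-fold limit and closest to the floor.

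Dkk3 encodes a divergent Dickkopf protein that does not share the LRP6 inhibition of DKK1. It read 5.59 on the wild type array and 5.92 on the labelled knockout array, a difference of 0.32. Dkk1, the best studied inhibitor of LRP6, read 3.27 on the wild type array and 3.04 on the labelled knockout array. Both Dkk1 values lay below the 95th percentile of the olfactory receptor genes, so Dkk1 RNA was not detectable above that level in either pool. The median difference of the 3 Dickkopf genes, Dkk1 below the floor included, was 0.32, the value of Dkk3.

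Wif1, which binds WNT proteins through a domain unrelated to Frizzled, read 4.79 on the wild type array and 4.82 on the labelled knockout array. With a difference of 0.04 it was the most alike between the pools among the 9 genes. With a lower limit of 0.32 on the log2 scale, 4 members were higher (Dkk3 besides Sfrp1, Sfrp2 and Dkk2) and 1 was lower (Frzb), beside 16.7% and 10.3% of all genes at the floor. At 2-fold, Sfrp1, Sfrp2 and Frzb were the members past the limit (among all genes at the floor 1.70% were past 2-fold upwards and 0.187% downwards).

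Most other genes of the WNT pathway lay within 1.5-fold. Of 80 genes listed in 5 groups, 79 were measured and 54 reached the floor, of which 4 (7.41%) were past 1.5-fold upwards and 2 (3.70%) downwards, beside 6.45% and 1.90% of all genes at the floor. Among 7 ligands at the floor, Wnt5a, which signals largely without beta-catenin, differed by 0.68 on the log2 scale (4.83 for wild type, 5.51 for labelled knockout). Wnt6 went the other way, with a difference of -0.70 to a value of 3.90, below the floor. The ligand median was -0.31. Medians of this and the later lists are over genes at the floor only, unlike the subgroup medians above.

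All 18 receptors and co-receptors reached the floor, with a median of 0.03 that turned to -0.02 when a loess trend on mean level was removed. Fzd1 was 1.74-fold higher (6.31 and 7.12, in the same order). Fzd9 was 1.51-fold lower (5.21 and 4.62), but under 1.5-fold, at -0.56 on the log2 scale, with the loess trend removed. The 12 cytoplasmic components, among them beta-catenin and the destruction complex, had a median of 0.12 and none past 1.5-fold.

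Other modulators, most but not all of them secreted, gave 9 genes at the floor, none past 1.5-fold. The list includes the R-spondins, which strengthen WNT signals, and the LRP5 and LRP6 blocker sclerostin. The median of the 9 genes was 0.02 and turned to -0.0034 after median centring. Feedback and target genes gave 8 of 13 measured at the floor, with a median of 0.41 and differences from -0.24 to 0.65. Nkd2, a Dishevelled-binding feedback inhibitor, was 1.57-fold higher (4.47 and 5.12), and Ccn5, a secreted CCN protein, 1.51-fold higher (6.55 and 7.14), though under 1.5-fold after centring (0.57). Axin2, the target most often used to read beta-catenin activity, differed by -0.24 (5.20 and 4.96). The remaining members at the floor were Ccnd1 (0.50), Ccn4 (0.47), Myc (0.36), Znrf3 (0.09) and Nkd1 (-0.22).

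**Figure D3:**
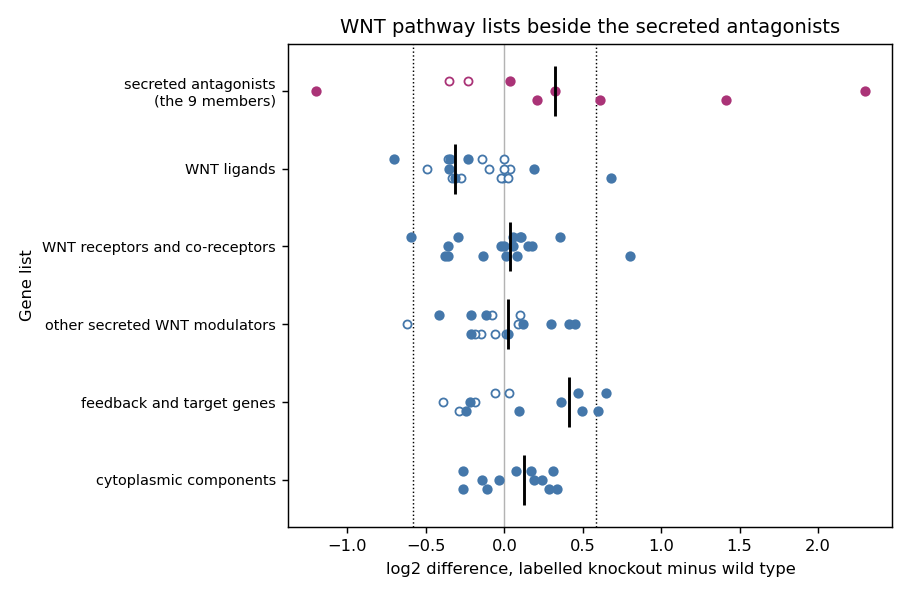
Log2 difference, labelled knockout minus wild type (x axis), for the 9 antagonist genes (top row) and 5 lists of other WNT pathway genes (y axis). Filled points reached the floor, open points did not, black bars are medians over the filled points and dotted lines mark 1.5-fold. The antagonists span -1.20 to 2.30, and the filled points of the other lists span -0.70 to 0.80. The antagonists were selected on these same differences, so nothing is read from their wider span.

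Bulk RNA does not tell fewer cells of a type from less RNA per cell, and markers of the cell types that a regenerating muscle holds were read in the same arrays. All 10 macrophage markers reached the floor and all 10 were at least 1.5-fold higher in the labelled knockout pool, with a median of 0.98. Msr1 (2.11), Itgam (1.80) and Cd14 (1.61) differed most on the log2 scale, and the summed linear value of the list was 2153 for wild type and 4569 for the labelled knockout. The macrophage markers thus moved in the direction of Sfrp1, Sfrp2 and Dkk2 and opposite to Frzb, and their part in these differences was not tested.

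Fibroblasts and fibro-adipogenic progenitors, the connective tissue cells of muscle, had 10 of 11 measured markers at the floor (Tcf21 was below it) and none past 1.5-fold. Their differences ran from -0.24 to 0.23, with a median of 0.08 and summed linear values of 9649 for wild type and 10451 for the labelled knockout. Col1a1 (11.82 and 12.05), Col3a1 (11.42 and 11.54) and Dcn (10.53 and 10.50) made up most of both sums. The part of these connective tissue cells in the differences of the antagonist genes was not tested. Tendon and cartilage markers had 8 of 10 at the floor (Mkx and Acan were below it). Their differences ran from -0.48 to 0.64, with a median of 0.24 and summed linear values of 1597 and 1906 in the same order. Thbs4 (10.02 and 10.29) made up most of both sums. The highest difference was that of Fmod, a collagen-binding proteoglycan, 1.56-fold higher (under 1.5-fold with the loess trend removed, at 0.58).

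Satellite cell and myoblast markers, all 10 at the floor, had a median of -0.09 and summed linear values of 3973 and 4001. Des, by far the highest of them (11.15 and 11.21), made up most of both sums. Msc, which represses myogenic factors, was 1.56-fold lower. Muscle fibre markers were lower by small amounts, all 10 at the floor and none past 1.5-fold, with a median of -0.17 and summed linear values of 34083 and 30604. Both lists showed skeletal muscle, with Ckm at 12.07 and 11.89 and Pax7 at 6.31 and 6.08, but do not tell which muscle it was. Endothelial, mural and Schwann cell lists had medians of 0.03, 0.07 and 0.04, the first turning to -0.03 with the loess trend removed. In them Vwf of endothelium was 1.79-fold and Pdgfrb of mural cells 1.57-fold higher. They were the highest of lists that ran from -0.29 to 0.84 (endothelium) and from -0.21 to 0.65 (mural cells) on the log2 scale.

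**Figure D4:**
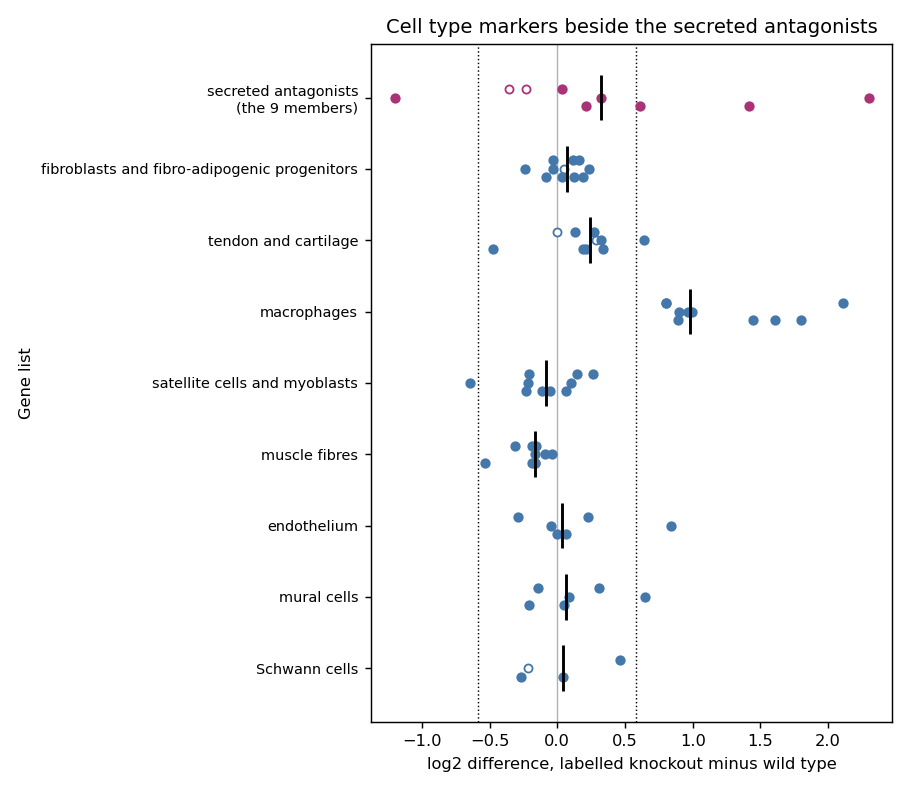
Log2 difference, labelled knockout minus wild type (x axis), for the 9 antagonist genes (top row) and 8 lists of cell type markers (y axis). Filled points reached the floor, open points did not, black bars are medians over the filled points and dotted lines mark 1.5-fold. The macrophage list lies wholly past the upper line, while the fibroblast and muscle fibre lists lie wholly between the lines.

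The Mef2a probe set read 8.92 on the wild type array and 9.06 on the labelled knockout array. The deleted part of Mef2a is not given in the labels, so this probe set does not check the genotype and each direction above rests on the labels.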

How the data were processed

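Per the labels' protocols, Trizol RNA of 5 mice per genotype was pooled and hybridised as biotin-labelled target. The submitters' processing notes name RMA and Affymetrix Expression Console as the authors' tools, and the deposited values are on the log2 scale. Tool versions were not given in the sources used here. RMA makes the 2 value distributions nearly equal (sorted values differ by at most 0.14), so a shift shared by most genes is not visible. Probe sets with 1 symbol in the platform annotation were used, 21789 of 35557, and all 9 gene identifiers matched RefSeq (GRCm38.p6). For genes with several probe sets the highest mean was taken. Differences are labelled knockout minus wild type, computed with pandas 2.3.3 and numpy 2.4.6 (Python 3.11.15). With 1 array per genotype no test was run; genes were counted past 1.5-fold at a floor of 4.39. The number of arrays limits the precision. The genes and lists were chosen with earlier results of these data known. Text names all 9 genes and, per list, up to 3 members at the floor past 1.5-fold with the largest differences. Further genes were added after their values were seen. They were Axin2, Nkd1, Znrf3, Ccnd1, Ccn4, Myc, Ckm, Pax7, Des, Thbs4, Col1a1, Col3a1, Dcn, Tcf21, Mkx and Acan. Counting and the loess step (statsmodels 0.14.6, span 0.3) were tested on simulated data. Alternatives were other scalings, floors, fold limits and probe set rules.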

Additional observations from a re-analysis of the deposited data

How the results depend on the processing

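Sfrp1, Sfrp2 and Frzb kept their direction and stayed past 1.5-fold under median centring and with the loess trend removed. Taking the mean of all probe sets could not change any of the 9 genes, since each has 1. Dkk2 fell short of 1.5-fold with median centring (0.58), and the other 8 genes kept their side of the limit there. The count of higher genes was 3 and stayed within 1.5 times of that under each alternative tried, with 2 under median centring, under the 2-fold limit and with a floor set at the upper quartile of the table (6.18), and 4 under the lower fold limit (0.32 on the log2 scale). The count of lower genes was 1 except with the upper quartile as floor, where it was 0, since the higher value of Frzb (6.14) lay below it. With the loess trend removed, 0 receptors were at least 1.5-fold lower, and 1 feedback or target gene was higher, as with median centring. Values near the floor can understate differences, while noise on single arrays and selection on these differences can enlarge them. Both bear on Dkk2 and on Frzb in the labelled knockout pool. Sfrp5 and Dkk1 lay below the floor on both arrays, and their differences are poorly bounded. With the loess trend removed they shrank from -0.35 to -0.21 for Sfrp5 and from -0.23 to -0.07 for Dkk1. With 1 pooled array per genotype, array and genotype cannot be told apart.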
